A study of Mus musculus with 4 samples.

Results

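NFIC, a transcription factor of the nuclear factor I (NFI) family, was mapped by ChIP-Seq in whole mouse pancreas, and the peaks described here were annotated as outside genes but close to one. They are the peaks annotated as intergenic whose centre is at most 10000 bp from the nearest transcription start site (TSS), called proximal intergenic peaks below. Of 15824 peaks in the merged list, 1178 (7.44%) fulfilled the rule, and they lay nearest to 1081 genes. The list stems from 3 libraries of chromatin precipitated with an antibody to NFIC and 1 library of input DNA, all from pancreata of wild-type mice of mixed strain aged 8 to 12 weeks. No mouse was mutant or treated in these libraries. Each peak has 1 score for the merged libraries and no value per library, so peaks could be described and counted but no difference could be tested against the spread between mice. Since the chromatin came from the whole organ, acinar, ductal, islet, stromal and blood cells cannot be told apart.

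NFI proteins bind DNA as dimers, and each partner of the dimer contacts 1 arm of a palindrome, TGGC on one side and GCCA on the other, with free bases between them. Intergenic sites near a gene belong to the zone in which proximal enhancers are found, beyond the core promoter where the polymerase is loaded. In the pancreas, acinar cells devote most of their transcription to secreted digestive enzymes, under the control of lineage factors such as PTF1A, RBPJL, GATA6 and NR5A2.

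The sequences below show what the bound element looks like. They were read from GRCm38 (mm10), top strand, 5′ to 3′, at proximal intergenic peaks that hold an exact NFI full site, TGGCNNNNNGCCA (N is any base). The first 4 have the highest scores of the members with an exact site after that of *Nfic* itself, and the rest belong to genes of the lists described further on. Capitals mark the 2 arms of the site, which sits in the middle of the stretch. The stretches are chr4:139095477-139095537 for *Nbl1*, chr12:16619124-16619184 for *Lpin1*, chr14:55122135-55122195 for *Jph4*, chr10:81128706-81128766 for *Zbtb7a*, chr4:133563173-133563233 for *Nr0b2*, chr14:51143524-51143584 for *Rnase1*, chr1:91464581-91464641 for *Per2*, chr4:141834867-141834927 for *Cela2a* and chr7:66076596-66076656 for *Selenos*.
Nbl1: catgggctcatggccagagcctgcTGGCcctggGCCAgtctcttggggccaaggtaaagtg
Lpin1: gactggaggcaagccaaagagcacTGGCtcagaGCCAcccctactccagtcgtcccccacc
Jph4: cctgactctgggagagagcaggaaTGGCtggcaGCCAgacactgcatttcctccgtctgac
Zbtb7a: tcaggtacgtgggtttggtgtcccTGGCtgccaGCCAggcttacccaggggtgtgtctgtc
Nr0b2: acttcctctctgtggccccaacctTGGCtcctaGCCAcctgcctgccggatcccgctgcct
Rnase1: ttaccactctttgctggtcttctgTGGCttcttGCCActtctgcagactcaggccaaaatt
Per2: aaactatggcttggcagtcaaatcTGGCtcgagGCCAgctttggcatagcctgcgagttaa
Cela2a: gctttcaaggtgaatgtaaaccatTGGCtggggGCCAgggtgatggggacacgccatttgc
Selenos: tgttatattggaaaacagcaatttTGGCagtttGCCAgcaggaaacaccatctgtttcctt

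An exact site was present in 13.5% of the members, and a further 42.4% held a site with 1 mismatch only. The 3 whole peaks that follow, 172 bp each, had scores of 35.3, 34.9 and 30.5, and show both cases. They lay at -9803 bp from the TSS of *Irf2bpl* (chr12:86894531-86894702), at -1910 bp from that of *Per1* (chr11:69096953-69097124) and at -8482 bp from that of *Nfic* (chr10:81435569-81435740). The capitals again mark the arms of a full site, with 1 base off the consensus in *Irf2bpl* and *Per1* and none in *Nfic*.
Irf2bpl: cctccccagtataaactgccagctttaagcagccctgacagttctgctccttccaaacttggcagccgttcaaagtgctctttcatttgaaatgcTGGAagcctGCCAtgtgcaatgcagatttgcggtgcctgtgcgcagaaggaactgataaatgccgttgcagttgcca
Per1: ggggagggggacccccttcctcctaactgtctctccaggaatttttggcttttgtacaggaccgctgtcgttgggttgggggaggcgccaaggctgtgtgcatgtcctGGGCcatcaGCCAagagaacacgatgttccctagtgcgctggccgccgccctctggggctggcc
Nfic: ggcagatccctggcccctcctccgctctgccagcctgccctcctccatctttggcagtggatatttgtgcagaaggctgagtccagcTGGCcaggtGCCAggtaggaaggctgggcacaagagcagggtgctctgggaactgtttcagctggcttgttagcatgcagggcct

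Proximal intergenic peaks lay mostly upstream of the gene they were assigned to. Of the 1178 peaks, 1001 (85%) were upstream of the nearest TSS, at a median of -4810 bp (quartiles -7163 and -2541), and 177 (15%) were downstream, at a median of 6841 bp (quartiles 4693 and 8359). The 95% Wilson interval of the upstream share was 82.8 to 86.9%. Intervals here and below cover counting error only. The share upstream was 62.1% among the 2983 mid-range intergenic peaks (10 to 100 kb from the TSS) and 54.5% among the 679 gene-desert intergenic peaks (beyond 100 kb). Part of this order follows from the rule, because a peak downstream of a TSS is intergenic only where it lies past the end of the gene, so that downstream members belong to short genes or to genes whose end is near. No member lay within 1000 bp of a TSS, since such peaks fall in the promoter-TSS class or in the gene body, and the nearest members stood at -1005 and 1465 bp. Upstream of that gap the peaks thinned out with distance, from 101 in the first 500 bp beyond it to 37 to 50 per 500 bp in the last 2500 bp. Downstream the numbers rose away from the TSS, from 5 and 41 in the first pair of intervals to 63 and 68 in the second pair.

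**Figure D1:**
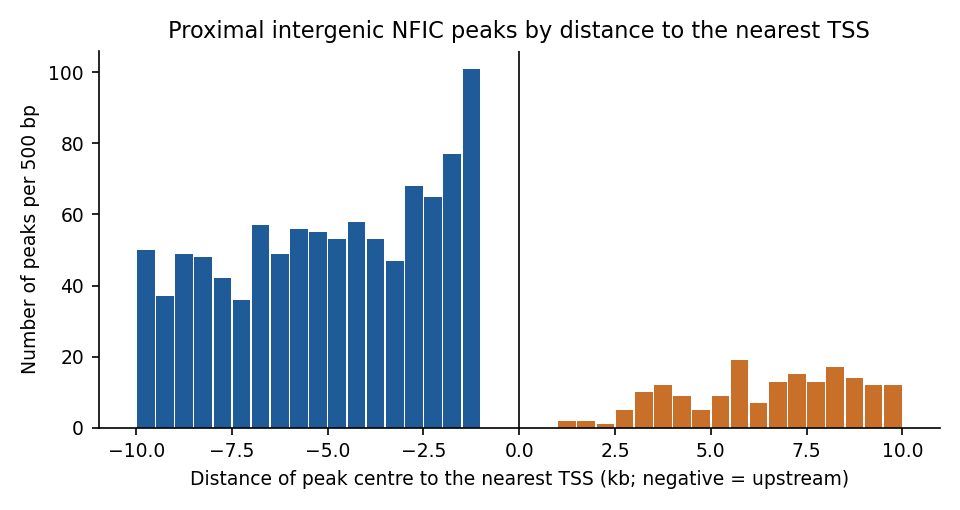
Number of proximal intergenic NFIC peaks per 500 bp (y axis) against the distance of the peak centre to the nearest TSS in kb (x axis, negative upstream), with upstream peaks in blue and downstream peaks in orange. The 1001 upstream peaks fill the range from 1 to 10 kb, whereas the 177 downstream peaks are mostly found beyond 5 kb.

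The limit of 10000 bp cut through a continuous range of peaks. Just inside it stood *Pdlim3* (-9995 bp, score 6.17), *Fosb* (-9990 bp, 4.18) and *Hmgb1* (-9980 bp, 5.38), and just outside it *Homer3* (-10002 bp, 4.78), *Amot* (-10013 bp, 4.38) and *Gpr61* (-10019 bp, 4.78).

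Around the peaks, the neighbouring protein-coding genes of RefSeq were arranged back to back in 412 cases (35%), in tandem in 518 (44%) and facing each other in 98 (8.32%). The peak was upstream of the nearest TSS in 97.3% of the back-to-back intervals and in 33.7% of the facing ones. This contrast follows in part from the definition, because a point between back-to-back genes is upstream of both, and a point between facing genes is downstream of both. The arrangement was read from protein-coding genes only, whereas the nearest TSS can belong to a gene of any kind. The 2 can therefore differ at a peak. The NFI full site (defined as above, with at most 1 mismatch in its 8 fixed bases) was found in 52.9%, 57.7% and 58.2% of the 3 arrangements, and the median score was 6.97, 6.97 and 7.37. A total of 165 peaks (14%) were within 10000 bp of the TSS of 2 or more protein-coding genes, so that the nearest gene is not the only candidate there, and 157 (13.3%) had no such TSS in reach and lay near genes of other kinds. The word intergenic depends on the annotation. In the RefSeq copy used here, 148 peaks (12.6%) lay inside a protein-coding gene once predicted transcripts were counted. For 103 of them this was the nearest gene itself, as for *Per1*, *Lpin1*, *Tmem91*, *Aanat* and *Nr4a1*. Counting genes of every kind, predicted ones included, 299 peaks (25.4%) lay inside a gene. With curated transcripts alone, 1105 (93.8%) of the peaks were still intergenic and within 10000 bp.

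The median score of proximal intergenic peaks was slightly above those of the classes compared, with the smallest difference to intron peaks. The peak score is the deposited one, on a scale that the file does not name. Its median was 6.97 (quartiles 5.38 and 9.56, highest 35.3) for the 1178 members, compared to 6.57 for all peaks, 6.77 for intron peaks, 6.37 for promoter-TSS and for mid-range intergenic peaks, and 6.17 for gene-desert peaks. The 95% interval of the members' median, from order statistics, was 6.77 to 7.37, and that of promoter-TSS peaks 6.17 to 6.57. For intron peaks it was 6.57 to 6.77, which touched that of the members. In the upper 2 score quartiles of the whole list stood 679 members (57.6%, interval 54.8 to 60.4), compared to 51.6% of all peaks, 53.7% (interval 52.5 to 54.9) of intron peaks and 44.2% of gene-desert peaks. The intervals of members and intron peaks overlapped. In these quartiles stood 58.9% (interval 55.9 to 61.9) of upstream and 50.3% (interval 43 to 57.6) of downstream members, with overlapping intervals. The very highest scores were elsewhere: no member exceeded 35.3, while an intron peak reached 68.1 and a promoter-TSS peak 54.4.

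**Figure D2:**
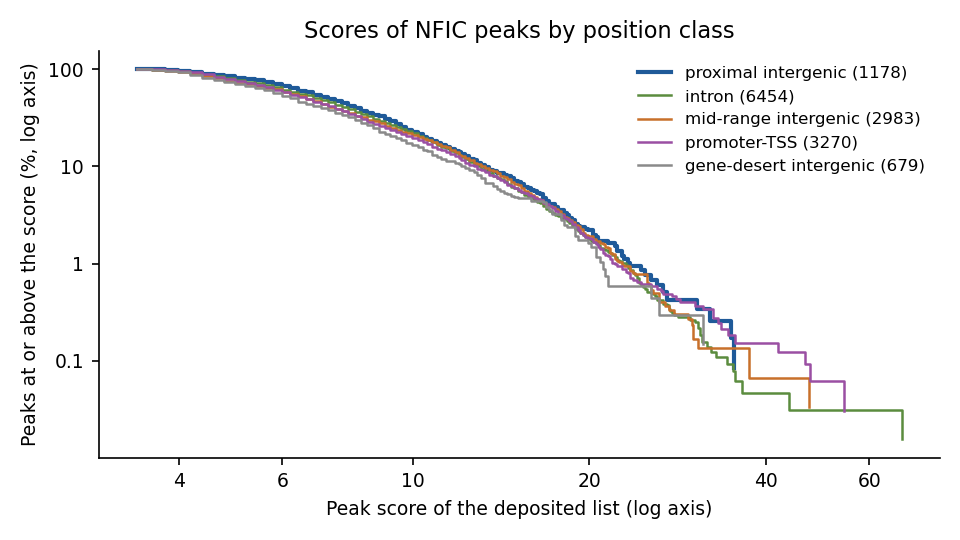
Share of peaks at or above a given score (y axis, %, log axis) against the deposited peak score (x axis, log axis), 1 line per position class with the number of peaks in brackets. The line of proximal intergenic peaks (thick blue) is the uppermost up to scores of about 10 and ends at 35.3, before the lines of intron, promoter-TSS and mid-range peaks.

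With 1 mismatch allowed, the NFI full site was the most frequent of the sequence patterns searched in the members. In the 200 bp around each peak centre, 658 of 1178 members (55.9%, interval 53 to 58.7) held a full site with at most 1 mismatch. The background over all peaks was 51.8%, so the members were near it. The share was 56.9% in intron peaks, 54.5% in mid-range and 57.3% in gene-desert intergenic peaks, and 36% in promoter-TSS peaks, the one class that stood clearly lower. In windows of the same length 1000 bp to each side of the members, 248 of 2356 (10.5%) held the site. An exact site was found in 159 members (13.5%, interval 11.7 to 15.6), against a background of 13.4% of all peaks, 4.83% of promoter-TSS peaks, 15.7% of mid-range peaks and 13 of the 2356 windows beside the members (0.552%). A single extended arm, TTGGCA on either strand, stood in 432 members (36.7%) and in 8.91% of the windows beside them. With the full site or the arm counted, 857 members (72.8%) had some NFI sequence, and 321 (27.2%, interval 24.8 to 29.9) had neither, compared to 32% of all other peaks. Of the windows beside the members, 425 of 2356 (18%) held the full site or the arm. Most members with a full site had only 1, with 554 of that kind, 94 with 2 sites and 10 with 3 or more.

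A single spacing of the arms stood out, and the sites lay at the peak centres. The pair TGGC and GCCA with exactly 5 free bases occurred in 159 member windows (13.5%), and every other spacing from 0 to 12 bases in 3 to 26 windows, the most frequent being 1 free base in 26 windows (2.21%) and 10 free bases in 24 (2.04%). Beside the peaks, the spacing of 5 bases occurred in 0.552% of windows and 10 free bases in 0.17%. The 161 exact sites in these windows were centred on the peak, with a median offset of 0 bp (quartiles -24 and 20), and 89 of them (55.3%) were within 25 bp of the centre. Of the 611 sites with 1 mismatch, 285 (46.6%) were. Among the bases next to the arms, read on both strands of the exact sites (322 arms), C preceded TGGC in 43.2% and T in 29.8%, and the first free base after TGGC was T in 39.8%, A in 30.4%, C in 25.8% and G in 4.04%.

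**Figure D3:**
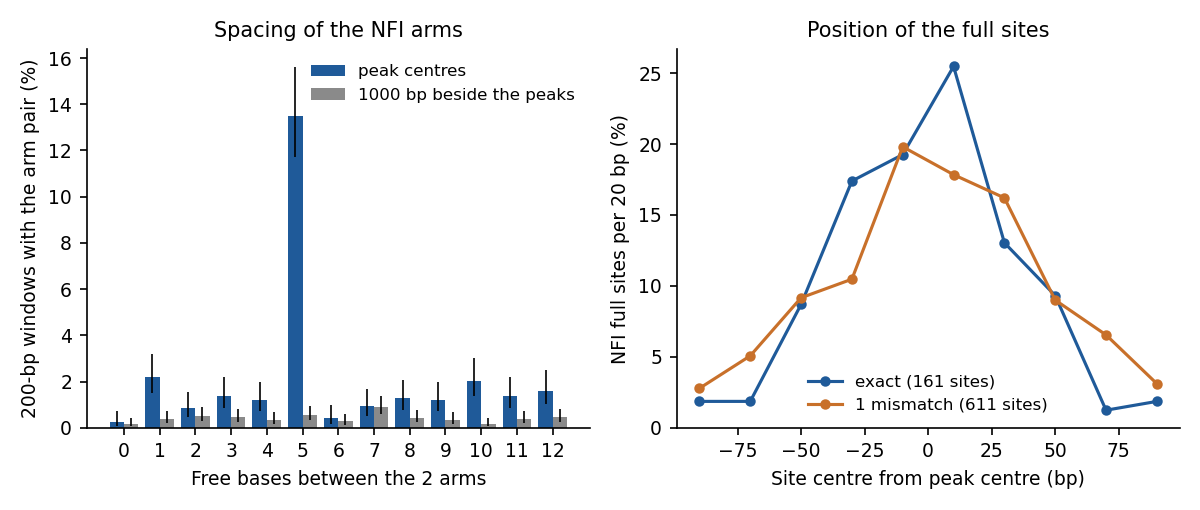
Left, share of 200-bp windows (y axis, %) with TGGC and GCCA at a given number of free bases (x axis), at the centres of proximal intergenic peaks (blue) and 1000 bp beside them (grey), with 95% Wilson intervals; right, share of NFI full sites per 20 bp (y axis, %) against the distance of the site from the peak centre in bp (x axis) for exact sites (blue) and sites with 1 mismatch (orange). The spacing of 5 bases reaches 13.5% at the centres and 0.552% beside them, and both kinds of site crowd around the centre.

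Members with higher scores held the site more often. In the highest score quartile of the list (scores from 9.16), 232 of 342 members (67.8%, interval 62.7 to 72.6) had a full site, followed by 51.9% of 337, 54.9% of 288 and 44.1% of 211 members (interval 37.5 to 50.8) in the lower quartiles. Over all peaks these shares were 68, 51, 44.2 and 43%, so the members stood above the list mainly in the third of these quartiles (scores 4.98 to 6.37). The exact site did not follow the score as closely, with 15.5% in the highest and 10.4% in the lowest quartile and overlapping intervals. Median scores were 7.37 for the 159 members with an exact site, 7.57 for 499 with a site of 1 mismatch, 7.17 for 199 with the arm alone and 6.37 for 321 with neither. The last interval, 5.98 to 6.77, did not overlap that of sites with 1 mismatch, 7.17 to 7.97. The share with a full site hardly varied with position, being 55.8% upstream and 55.9% downstream, and 54.3 to 59.3% in the 4 upstream distance intervals.

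CpG islands held more of these peaks than of the mid-range intergenic peaks, whereas repeats held a like share. The detailed annotation placed 81 members (6.88%, interval 5.57 to 8.47) on a CpG island and 201 (17.1%, interval 15 to 19.3) on a named repeat, while 896 were on neither. Among mid-range intergenic peaks the shares were 3.25% (2.67 to 3.95) and 15.9% (14.6 to 17.2), and among intron peaks 5.48 and 13.4%. Promoter-TSS peaks carry no such note in the list. Members on CpG islands had a median GC content of 69% compared to 52.5% for all members, an NFI full site in 40.7% and an exact one in 3 of 81, and GGGCGG, the word bound by SP and KLF factors, in 59.3%, close to the 58.5% of promoter-TSS peaks and above the 11.7% of all members. Their median score was 7.57, and they included *Egr1* (-1266 bp, score 26.7), an immediate-early zinc finger factor, *Hes1* (5073 bp, 22.1), a bHLH repressor downstream of Notch, and *Bhlhe41* (-1269 bp, 7.77). Over all 538 peaks noted on CpG islands, the full site stood in 45.2%, the exact site in 7.06% and GGGCGG in 64.1%, so these shares were not particular to the members. CpG-island members became fewer away from the TSS, from 29 of 243 peaks (11.9%) at 1000 to 2500 bp upstream to 8 of 226 (3.54%) at 7500 to 10000 bp. Members on repeats had lower scores, with a median of 6.17 (interval 5.78 to 6.77) compared to 7.17 (6.97 to 7.37) for those on neither kind, and yet the same share of full sites, 54.7% compared to 57.5%, and of exact sites, 13.9% compared to 14.3%. Among them were peaks noted on endogenous retroviral long terminal repeats at *Nr0b2* and *Rnase1*, both with an exact site in the window, on a B2 element at *Os9*, also with an exact site, and on a tRNA-derived element at *Gadd45b*. The note is given per peak, and whether a site lay within the repeat was not tested. At *Nr0b2* the exact site was at -80 bp from the peak centre. The NR5A2 word (CAAGGTCA or CAAGGCCA) was present in 24 of 201 repeat members (11.9%, interval 8.16 to 17.2) and in 5.69% of all members. Over all 1654 peaks on repeats its share was 6.53% (interval 5.44 to 7.82), near the 5.37% of all peaks, so it was not a general trait of repeat peaks.

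Other words of pancreatic factors were less frequent than the NFI full site with its 1 mismatch, but most of them were searched without mismatches. The exact NFI site (13.5% of members) was less frequent than the E-boxes, TGGGAA and AGGTCA given below. A total of 17 patterns were searched on both strands, and those described were singled out after their values were seen. TGGGAA, the core bound by RBPJ and the acinar RBPJL, was found in 306 members (26%, interval 23.6 to 28.6) compared to 22.7% (21.2 to 24.2) of mid-range and 23% (20 to 26.3) of gene-desert intergenic peaks, 16.5% of promoter-TSS peaks and 19.1% of the windows beside the members. Matches that overlapped no NFI full site or arm gave 25.5% in members and 20.2% in all other peaks. The CTCF core, searched by its 12-base consensus with at most 1 mismatch, was found in 147 members (12.5%, interval 10.7 to 14.5), compared to 10.4% (9.32 to 11.5) of mid-range and 7.66% (5.89 to 9.91) of gene-desert intergenic peaks, 8.36% of all other peaks and 3.52% beside the members, and it stood in 34 of 177 downstream members (19.2%, interval 14.1 to 25.6) and in 11.3% of upstream ones. It was also more frequent in members without an NFI full site (16.7%, interval 13.8 to 20.2) than in those with one (9.12%, 7.15 to 11.6). The end of the CTCF core resembles an NFI arm, and without matches that overlapped an NFI site or arm the shares were 11.5% in members and 7.69% in other peaks. GATAAG stood in 113 members (9.59%), a share like that of mid-range (9.49%) and gene-desert (10.6%) intergenic peaks, while promoter-TSS peaks had 3.33% and the windows beside the members 5.35%. In members, mid-range intergenic peaks and the windows beside the members, the E-boxes CAGCTG or CAGATG stood in 33.6, 37 and 22.3%, the NR5A2 word in 5.69, 6.27 and 4.75%, and AGGTCA, the half-site of nuclear receptors and a part of CAAGGTCA, in 15.9, 16.8 and 13.5%. The NR5A2 word was as frequent in members with an NFI full site (33 of 658) as in members without one (34 of 520) within their intervals.

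The peaks with the highest scores were near genes of quite different function. *Irf2bpl* (35.3), *Per1* (34.9) and the non-coding gene *1110002J07Rik* (-1143 bp, 32.1) came first, and *Nfic* itself (30.5) next. They were followed by *Nbl1*, a secreted BMP antagonist (-2500 bp, 27.1), *Egr1* (26.7), *Lpin1*, a phosphatidate phosphatase (-8148 bp, 26.1), *Tmem91* (-1422 bp, 25.5), *Txn2*, the mitochondrial thioredoxin (-4956 bp, 24.9), and *Aanat*, an enzyme of melatonin synthesis (-1065 bp, 24.5). *Stx1a*, a SNARE of exocytosis (-1466 bp, 23.5), *Gas2l3* (-6609 bp, 23.3), *Jph4* (-5215 bp, 22.9), *Zbtb7a*, a zinc finger repressor (-7515 bp, 22.7), and *Gadd45b*, a stress-response gene (7741 bp, 22.3), completed the first 15. All of these peaks except that of *Tmem91* held a full site, and 5 of them, at *Nfic*, *Nbl1*, *Lpin1*, *Jph4* and *Zbtb7a*, an exact one. Several were far above the promoter of the same gene. At *Irf2bpl*, the promoter peak at -141 bp had a score of 8.76, and at *Per1* the one at -44 bp a score of 16.1, with a full site of 1 mismatch in the latter. *Nfic* had only 1 other peak, in its first intron (2203 bp, score 8.56), which held no full site.

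Most genes had a single proximal intergenic peak. Of the 1081 genes, 995 had 1, 80 had 2 and 6 had 3, namely *Hes1*, *Ccdc8*, *Nfam1*, *Adcy6*, *Gm5767* and *4930542M03Rik*. At *Hes1* the peaks stood at -8183 bp (score 10.4), -5809 bp (8.96) and 5073 bp (22.1), and a further peak with a score of 17.3 lay in the last exon. The 3 peaks of *Nfam1* stood close together, at -3862, -4600 and -5939 bp (scores 10.4, 9.56 and 6.57), and the weakest held the exact site. A second peak within 2000 bp was present for 103 members (8.74%), compared to 9.73% of all peaks, and the median distance to the next peak was 11027 bp compared to 18442 bp. Protein-coding genes were nearest to 1001 members (85%), and non-coding RNA genes to 158 (13.4%), close to 86.6 and 12.6% of all peaks.

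Few genes with a proximal intergenic peak also had one at the promoter. A promoter-TSS peak was present at 180 of 1081 genes (16.7%, interval 14.5 to 19). Among all 9086 genes with a peak it was 35.1%, but that figure counts genes taken up through the promoter peak itself. The closer comparison is with genes that have a mid-range intergenic peak, 18.8% (17.2 to 20.5), or an intron peak, 19.2% (18.1 to 20.5), and the members' share was near both. An intron peak was present at 312 of the genes (28.9%), and 457 (42.3%) had no other class of peak assigned to them. In the 180 genes with both kinds, the proximal intergenic peak had the higher score in 85, the scores were equal in 3, and the promoter peak was higher in the rest. The full site was as frequent in members of genes with a promoter peak (107 of 193, 55.4%) as in those of genes without one (548 of 980, 55.9%), and it was found in 79 of 186 promoter peaks of these genes (42.5%, interval 35.6 to 49.7) and in 35.6% of those of other genes.

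Digestive enzymes and other secreted acinar proteins were the list with the highest share of genes with a proximal intergenic peak. It was found at 14 of 46 genes (30.4%, interval 19.1 to 44.8), compared to 920 of the 21774 protein-coding genes of the annotation (4.23%). Any peak at all was present at 28 of the 46 genes (60.9%) and at 35.9% of protein-coding genes, and of the genes with a peak, 50% and 11.8% had a proximal intergenic one. The annotation includes genes that the pancreas does not express, the lists are small, several of their genes are neighbours in the genome, and the peaks were assigned to the nearest TSS. The 16 peaks included proteases and their precursors (*Try4*, *2210010C04Rik*, *Cela2a*, *Cela3a*, *Cela3b*, *Ctrc*), lipases (*Pnlip*, *Pnliprp2*, *Pla2g1b*), the ribonuclease *Rnase1*, the REG lectins *Reg3a* and *Reg3b*, the zymogen granule protein *Sycn* and the trefoil peptide *Tff2*. The highest score was at *Rnase1* (3190 bp, 17.5), followed by *Try4* (-1871 bp, 11.8), *Reg3b* (-8782 bp, 11.4), *Cela3b* (-6968 bp) and *Pnliprp2* (-6970 bp), both 11, and the lowest at *Ctrc* (-8904 bp, 3.98). The median of the 16 scores was 7.77, compared to 6.97 for all members. In 8 of the 14 genes, *Rnase1*, *Try4*, *Reg3b*, *Reg3a*, *Pla2g1b*, *Pnlip*, *Cela3a* and *Ctrc*, there was no promoter-TSS peak. The other 6 had one, compared to 180 of all 1081 genes with a member (16.7%), so a promoter peak was not rarer in the enzyme genes. Since trypsinogen, elastase and REG genes are duplicated, reads that fit several copies may have been placed or lost in ways the file does not show.

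**Figure D4:**
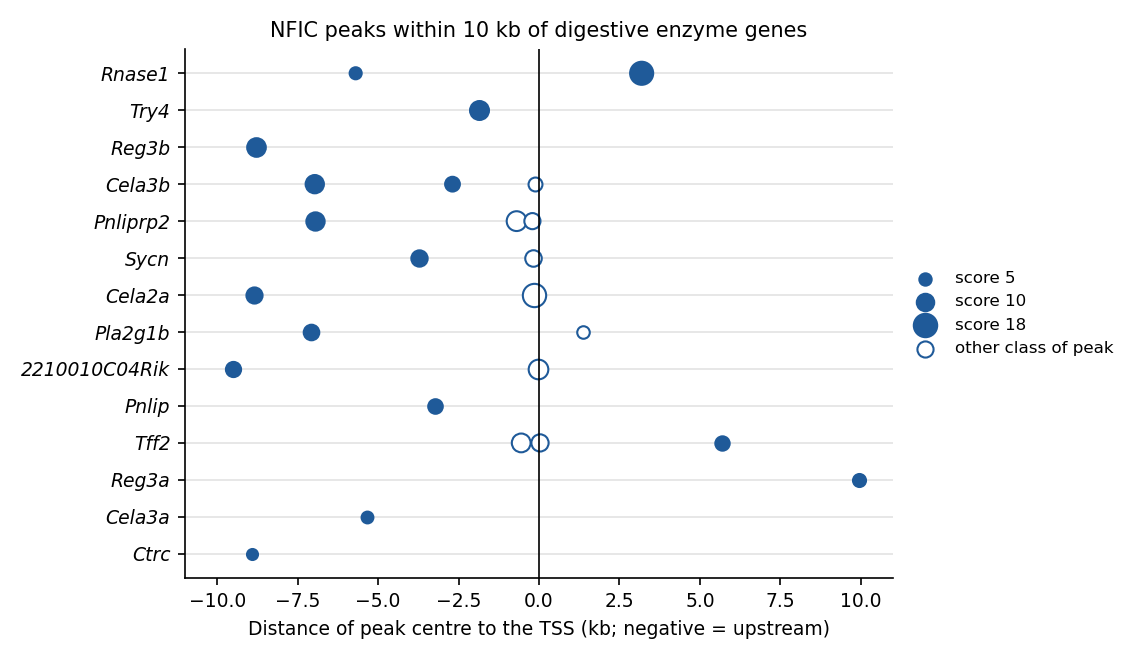
NFIC peaks within 10 kb of the TSS at the 14 genes of digestive enzymes and secreted acinar proteins with a proximal intergenic peak (rows, ordered by their highest such score), by distance of the peak centre to the TSS in kb (x axis, negative upstream). Filled circles are proximal intergenic peaks, open circles peaks of other classes, and the area of a circle is proportional to the score. In 13 of the 16 cases the filled circle is upstream, and 6 rows also have an open circle at the promoter.

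The palindrome was counted in the enzyme peaks as well. A full site was present in 5 of the 16 windows (31.2%, interval 14.2 to 55.6), at *Rnase1* (3190 bp, exact), *Cela2a* (exact), *Cela3b* (-2688 bp), *Cela3a* and *Sycn*, compared to 55.9% of all members and 45.7% (30.5 to 61.8) of the 35 other peaks of the list, with overlapping intervals, and the arm TTGGCA in 8 (50%). The full site or the arm was found in 11 (68.8%, interval 44.4 to 85.8) compared to 72.8%. GATAAG, the word of GATA factors, was present in 6 of the 16 (37.5%, interval 18.5 to 61.4), compared to 9.59% of all members, and AGGTCA in 8 (50%, interval 28 to 72), compared to 15.9%. In the 35 other peaks of the enzyme list, GATAAG stood in 25.7% and AGGTCA in 17.1%. Both words were singled out among the 17 patterns after their values were seen, and the 16 peaks include neighbours of related genes. GATAAG and the NFI arm occurred together in 4 enzyme peaks (25%, interval 10.2 to 49.5), compared to 43 of 1178 members (3.65%). Each word was also more frequent by itself in the enzyme peaks, the arm in 50% compared to 36.7% of members and GATAAG in 37.5% compared to 9.59%. Whether they occur together more often than these single shares give was not tested. These 4 windows of 200 bp are shown because they carry both words, which are in capitals (on either strand, so that GATAAG may appear as CTTATC and TTGGCA as TGCCAA). They are chr19:58752653-58752852 for *Pnliprp2*, chr6:78362003-78362202 for *Reg3b*, chr6:41300301-41300500 for *Try4* and chr5:115458955-115459154 for *Pla2g1b*.
Pnliprp2: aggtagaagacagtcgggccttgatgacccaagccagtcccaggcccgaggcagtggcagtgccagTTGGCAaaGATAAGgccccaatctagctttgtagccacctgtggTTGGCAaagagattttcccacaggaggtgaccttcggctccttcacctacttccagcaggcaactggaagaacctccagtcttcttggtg
Reg3b: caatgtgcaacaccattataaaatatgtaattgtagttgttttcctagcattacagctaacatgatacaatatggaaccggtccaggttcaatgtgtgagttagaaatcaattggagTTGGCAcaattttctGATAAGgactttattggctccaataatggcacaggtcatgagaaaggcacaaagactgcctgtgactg
Try4: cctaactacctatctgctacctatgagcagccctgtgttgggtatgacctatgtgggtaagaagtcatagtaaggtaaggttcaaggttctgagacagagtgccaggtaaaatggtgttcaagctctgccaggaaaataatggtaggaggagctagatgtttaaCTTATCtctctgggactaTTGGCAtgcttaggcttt
Pla2g1b: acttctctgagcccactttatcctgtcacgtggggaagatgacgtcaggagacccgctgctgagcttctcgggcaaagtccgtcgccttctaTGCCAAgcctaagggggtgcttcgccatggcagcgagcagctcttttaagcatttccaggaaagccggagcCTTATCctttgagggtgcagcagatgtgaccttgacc
The shortest gap between the arm and the GATA word was 2 bases in *Pnliprp2*, 9 in *Reg3b*, 12 in *Try4* and 65 in *Pla2g1b*. The other enzyme peaks with GATAAG were those of *Pnlip* (-3225 bp, score 6.97) and the upstream peak of *Rnase1* (-5697 bp, 4.78), both without the arm.

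Genes of the endoplasmic reticulum (ER) stress response had a proximal intergenic peak in 10 of 56 cases (17.9%, interval 10 to 29.8), compared to the 4.23% of all protein-coding genes. A peak of any class was present at 41 of the 56 (73.2%, compared to 35.9%), and of the genes with a peak 24.4% had a proximal intergenic one, compared to 11.8%. The peaks lay at *Herpud1* (-8650 bp, 15.3), *Sel1l* (-5095 bp, 9.76), *Selenos* (-2994 bp, 8.17), *Edem2* (-5767 bp, 7.77) and *Os9* (-4242 bp, 7.37), all of which serve the degradation of misfolded ER proteins, and at *Ern1*, the IRE1 sensor (-3827 bp, 7.57). The others were *Ddit4*, an inhibitor of mTORC1, *Chac1*, *Cebpb* and *Hsp90aa1*, a chaperone of the cytosol. *Ddit4* had 2 of them, at 7931 bp (11.2) and 6902 bp (10.2), beside a promoter peak at -284 bp (14.7). The peak at 6902 bp was noted on a B1 repeat, had a GC content of 30% and held neither an NFI full site nor the arm. Exact sites stood at *Selenos* and *Os9*.

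The circadian clock, AP-1, nuclear receptor and acinar transcription factor lists also had shares above that of all protein-coding genes. They were bound more often by any class of peak too, at 75, 71.4, 65.8 and 94.7% of their genes compared to 35.9%, and of the genes with a peak 33.3, 30, 20 and 16.7% had a proximal intergenic one, compared to 11.8%. In the circadian clock list there were 5 of 20 genes (25%, interval 11.2 to 46.9): *Per1*, *Per2* (-5312 bp, 9.36, exact site, and -6198 bp, 6.97), *Bhlhe41*, *Npas2* (-1469 bp, 6.97) and *Nfil3* (-1072 bp, 5.18). In the AP-1 family there were 3 of 14 (21.4%, interval 7.57 to 47.6), *Jund* (-9979 bp, 17.1, and -2336 bp, 9.96), *Junb* (-2515 bp, 11.4) and *Fosb*, and in the nuclear receptors 5 of 38 (13.2%, interval 5.75 to 27.3), *Nr4a1* (-6324 bp, 15.1), *Thrb* (-1771 bp, 8.76), *Nr3c1* with 2 peaks (7.17 and 6.97), *Thra* (-1182 bp, 7.17) and *Esr2* (-1943 bp, 6.37). Acinar transcription factors gave 3 of 19 (15.8%, interval 5.52 to 37.6), *Nr0b2* (9907 bp, 18.1), an orphan receptor that represses NR5A2, *Creb3l1* (-4254 bp, 14.1) and *Mecom* (-5463 bp, 5.38), although 18 of the 19 had a peak of some class. *Nr0b2* had a promoter peak of nearly the same score, 18.3, without a full site. With predicted transcripts counted, the peaks of *Per1*, *Nfil3* and *Nr4a1* and both of *Nr3c1* lay inside the gene itself. The peak of *Fosb* (-9990 bp, 4.18) stood just inside the distance limit. The shares of these lists without such peaks were not computed. Of the 4 NFI genes only *Nfic* had a proximal intergenic peak, while all 4 had some peak.

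The intervals of the remaining lists included the background of 4.23%. Secretagogue receptor and exocytosis genes gave 3 of 33 (9.09%, interval 3.14 to 23.6), namely *Itpr3*, *Ryr1* and *Gna11* (scores 6.97, 5.98 and 4.18), and ribosomal protein genes, which all cells express, gave 3 of 80 (3.75%, interval 1.28 to 10.5), *Rps20*, *Rpl28* and *Rpl24*. Markers of duct, stellate, endothelial and blood cells gave *Krt19* among 17 duct genes, *Col1a1* among 14 stellate and fibroblast genes, and none among 10 endothelial and 17 leukocyte genes, where the upper bound of the interval was 27.8 and 18.4%. Peaks of any class were present at 2 of 17 leukocyte, 4 of 14 stellate, 4 of 10 endothelial and 10 of 17 duct genes. *Krt19* had 2 proximal intergenic peaks (-9757 bp, 7.57, and -6768 bp, 6.17).

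**Figure D5:**
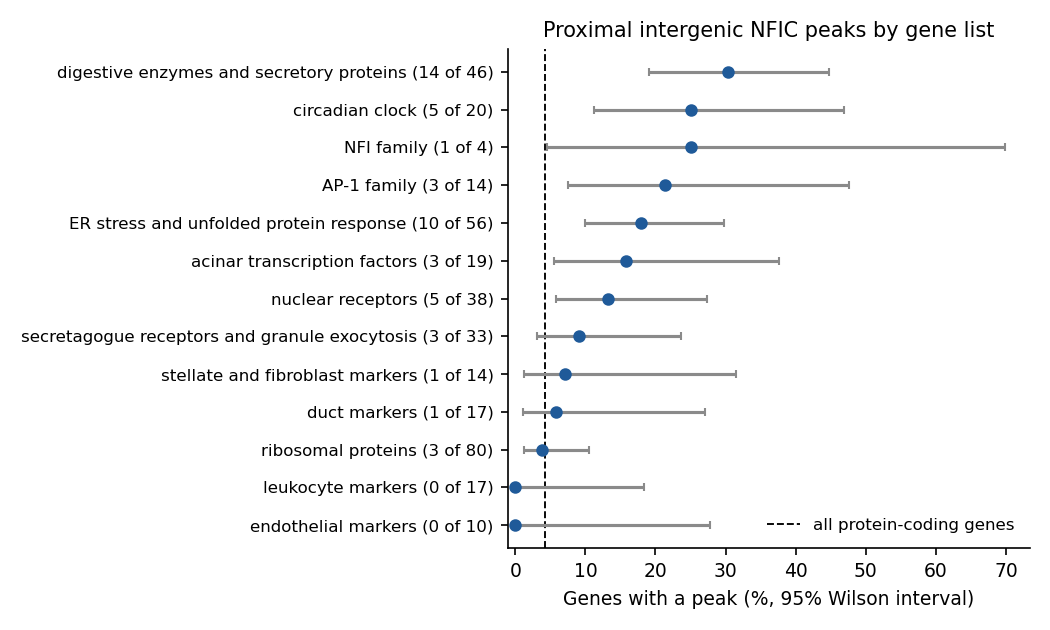
Share of genes with a proximal intergenic NFIC peak (x axis, %) in each gene list (rows, with the number of genes with such a peak and of genes in the list), with 95% Wilson intervals. The dashed line is the 4.23% of all protein-coding genes, and the intervals of 7 lists, from digestive enzymes to nuclear receptors, lie above it.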

How the data were processed

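NFIC ChIP-Seq of mouse pancreas gave 3 libraries and 1 input library. The authors deposited 1 merged, annotated peak list (mm10, annotatePeaks.pl per the file headers). The submitters' processing notes name BWA, Picard and MACS2, and their versions, and the thresholds used, are not given in the sources used here. The paper names the RUbioSeq+ pipeline and HOMER for peak calling, so which program gave the deposited peaks and scores is not settled here. The peak score, as the authors deposited it, is on an unnamed scale with 161 different values, and the deposited focus ratio, a fraction of a peak's tags, was summarised but no statement rests on it. The list has 0 columns of values per sample, so depth and replicate error are unknown and no test was made.

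Proximal intergenic peaks were selected by annotation class and distance (Python 3.11.15, pandas 2.3.3). Motifs were searched on both strands of 200-bp windows centred on the peaks, in RefSeq GRCm38.p6 (pysam, samtools 1.23.1). The search and the intervals were tested on simulated data. Neighbouring genes came from the RefSeq annotation of that assembly, which gave the same distance within 1 bp for 1069 of 1178 peaks. Shares carry 95% Wilson intervals (scipy 1.17.1). Lists were matched by gene ID. A few genes are not reported here and were left out of their lists, and islet markers are not analysed here. Members and lists were chosen with earlier results of these data known. Named are the genes of the 15 highest scores, the 5 genes with most members (ties kept), list genes with a member and the peaks beside the limit. Alternatives were other limits, score and mismatch settings, windows and annotation.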

Additional observations from a re-analysis of the deposited data

How the results depend on the processing

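Counts followed the settings that define the set. With the limit lowered to 5000 bp or set to 20 kb there were 568 and 2039 peaks (553 and 1758 genes), with 91.9 and 78.5% of them upstream, and in the upper 2 score quartiles 679 peaks near 627 genes. The share with an NFI full site was 13.5% without mismatches, 42.5% in windows of 100 bp, 62.6% in windows of 400 bp and 59.9% in the upper 2 score quartiles. The share of genes with a promoter peak was 22.5% with the promoter taken from -1000 to 1000 bp, and 12.3% with both kinds of peak limited to the upper 2 score quartiles. The background of protein-coding genes was 2.49% in the upper 2 quartiles and 5.1% when every TSS within 10000 bp was counted, where the enzyme list gave 23.9 and 30.4%. The other 22 values moved by less than their counting intervals, or by less than 1.5 times for counts, among them the median score, the site share at the other limits and without repeats, and the 5 gene lists recomputed. No paired analysis was possible because the result comes from no test. The depth of the libraries and the agreement between mice are unknown, so the intervals leave out both.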
